A study of Oryza sativa with 8 samples.

Results

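A set of 412 rice genes carried several differentially methylated regions (DMRs) in every comparison of the series. A gene belonged to the set when its interval, which takes in the gene and its 1 kb promoter, was listed as differentially methylated in all 4 comparisons, was shorter than 18000 bp and overlapped at least 3 DMRs of each comparison by at least 52 bp each. The 412 genes were 2.15% of the 19182 genes listed in any comparison and 14.0% of the 2941 genes listed in all 4, of which 2913 were shorter than 18000 bp. The genes were chosen by their measured numbers of DMRs, so those numbers are described below and not tested.

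The DMRs came from bisulfite sequencing of the whole genome, which reads unmethylated cytosines as thymine, of DNA from mature field-grown plants, taken from leaves by the study's methods and labelled as shoot. Ox1 is 1 transgenic line that overexpresses OsNAR2.1, a partner protein that nitrate transporters of the NRT2 family need, and WYG7 is its wild type. Plants of each line were raised from parent seed of low nitrogen content (LN) or of high nitrogen content (HN), in a field without nitrogen fertilizer (NN field) or in a field given 300 kg nitrogen per ha (HN field). That gave 8 libraries, 1 for each of Ox1-LN, Ox1-HN, WYG7-LN and WYG7-HN in each field. Each of the 4 comparisons set the LN library of a line against its HN library within a field, and the comparisons share no library. They are called by field and line below, so that HN-field Ox1 stands for Ox1-LN against Ox1-HN in the HN field. With 1 library per condition and no value per library in the lists, no difference below has a replicate error and no test across samples could be made, and differences between plants cannot be told apart from those between seed sources.

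Cytosines of plant DNA are methylated in the CG, CHG and CHH contexts (H stands for A, C or T). Methylation over transposons and other repeated sequences is dense, occurs in all contexts and accompanies silencing, whereas methylation inside the bodies of expressed genes is mostly in the CG context. Small RNAs can direct new methylation to sequences they match, which includes copies of one sequence at several places of the genome. The lists used here carry no level, coverage, p-value or context for a DMR, so the depth behind a single DMR is unknown, and the loci are given by their identifiers with no product or role. A hyper-DMR was taken to mean more methylation in the LN library than in the HN library, and a hypo-DMR less. The lists do not name the library that served as control. For Ox1 the study's text reports mostly hyper-DMRs in the HN field and mostly hypo-DMRs in the NN field, while a section heading of it states the reverse. Its sequencing summary counts more methylated cytosines in Ox1-LN than in Ox1-HN in the NN field, where most Ox1 DMRs are hypo. The reading of the directions is therefore an assumption that was not tested.

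In each comparison the 412 genes overlapped between 3 and 10 DMRs apiece. The median was 5 DMRs per gene for NN-field Ox1, 4 for NN-field WYG7, 5 for HN-field Ox1 and 5 for HN-field WYG7. The means were 5.10 ± 1.70, 4.75 ± 1.60, 4.98 ± 1.57 and 5.42 ± 1.82 in that order (SD over the 412 genes, which are not replicates). Among all 19182 listed genes, at least 3 DMRs were found in 5.84% for NN-field Ox1, 8.02% for NN-field WYG7, 8.01% for HN-field Ox1 and 9.68% for HN-field WYG7. All 412 genes pass this limit by the way they were chosen, and nothing is read from the difference.

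The part of each list that fell in the set follows from the number of DMRs the rule asks for. The 412 genes overlapped 2097 different DMRs of NN-field Ox1, which was 10.6% of that list. The numbers were 1950 DMRs (7.42%) for NN-field WYG7, 2045 (8.01%) for HN-field Ox1 and 2224 (7.70%) for HN-field WYG7. Over the 4 comparisons a gene had between 12 and 37 DMRs with a median of 20, and the median density was 3.35 DMRs per kb of interval (0.90 to 6.87). Only 21 DMRs were counted in 2 genes of the set.

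Most of the genes lay close to the limit of the rule. The smallest number of DMRs in any comparison was exactly 3 in 221 genes, 4 in 109, 5 in 48, 6 in 25, 7 in 6 and 8 in 3. The 221 genes just inside the limit had a median of 17 DMRs in all (12 to 28) and a median interval of 6268 bp. Just outside it were 469 genes whose smallest number was 2, with a median of 12 DMRs (8 to 22) and a median interval of 5366 bp. Of these, 232 fell short in 1 comparison only. A further 9 genes met the number in every comparison but were 18000 bp or longer.

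The highest counts belonged to LOC_Os02g12120, LOC_Os11g01920 and LOC_Os08g35390. LOC_Os02g12120 (chromosome 2, 6299213 to 6311619, IRGSP-1.0) had 37 DMRs, the most in the set, with 2 hyper and 8 hypo for NN-field Ox1, 6 hyper and 4 hypo for NN-field WYG7, 6 hyper and 1 hypo for HN-field Ox1, and 3 hyper and 7 hypo for HN-field WYG7. Its interval of 12407 bp had no base under a DMR of all 4 comparisons. LOC_Os11g01920 (chromosome 11, 492404 to 499496) packed 36 DMRs into 7093 bp. It had 1 hyper and 8 hypo for NN-field Ox1, 5 and 4 for NN-field WYG7, 7 and 1 for HN-field Ox1, and 5 and 5 for HN-field WYG7. LOC_Os08g35390 (chromosome 8, 22309180 to 22315987) had 36 DMRs as well, and hypo-DMRs were in the majority or equal in every comparison, with 5 of 8 for NN-field Ox1, 6 of 9 for NN-field WYG7, 5 of 9 for HN-field Ox1 and 5 of 10 for HN-field WYG7.

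LOC_Os11g01920, LOC_Os08g35390 and LOC_Os04g39990 were the 3 genes with at least 8 DMRs in every comparison. LOC_Os04g39990 (chromosome 4, 23799784 to 23806938) had exactly 8 DMRs in each of them. The hypo-DMRs among those 8 were 7 for NN-field Ox1, 5 for NN-field WYG7, 2 for HN-field Ox1 and 6 for HN-field WYG7. LOC_Os01g17360 (chromosome 1, 9989370 to 9996046, 6677 bp) had 34 DMRs, and all 9 of NN-field Ox1 were hypo, while 5 of 9 were hyper for HN-field Ox1. LOC_Os07g13634 reached 35 DMRs over a far longer interval of 17870 bp.

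**Figure D1:**
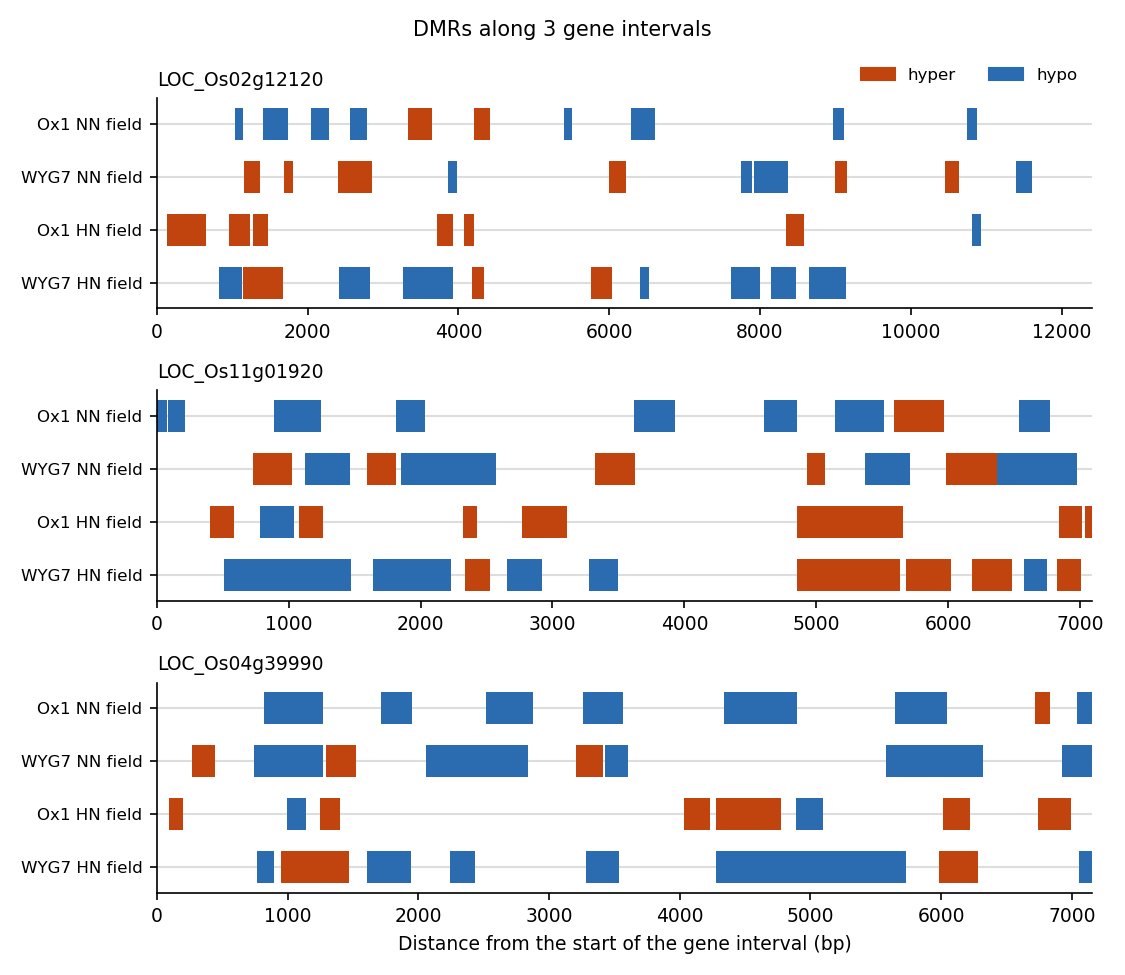
DMRs along the intervals of LOC_Os02g12120, LOC_Os11g01920 and LOC_Os04g39990. Each row is 1 comparison of LN with HN seed, the horizontal axis is the distance in bp from the start of the gene interval, and each block is 1 DMR drawn to scale, orange for hyper and blue for hypo, cut at the interval ends. Each gene carries blocks of both directions, partly in runs of one direction, and the row of NN-field Ox1 is mostly blue, with 8 of 10, 8 of 9 and 7 of 8 DMRs hypo.

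DMRs were packed most tightly in LOC_Os06g20160 (chromosome 6, 11562589 to 11566812), with 29 DMRs or 6.87 per kb. Its DMRs were 1 hyper and 7 hypo for NN-field Ox1, 4 hyper and 1 hypo for NN-field WYG7, 7 hyper and 3 hypo for HN-field Ox1, and 4 hyper and 2 hypo for HN-field WYG7. The shortest intervals were those of LOC_Os05g50540 (2239 bp, 13 DMRs), LOC_Os08g20320 (2404 bp, 15 DMRs) and LOC_Os04g07000 (3085 bp, 14 DMRs). The longest were those of LOC_Os03g51790 (17903 bp, 23 DMRs), LOC_Os07g13634 and LOC_Os06g30179 (17803 bp, 22 DMRs). None of the 16 loci for which the study lists primers, its reference gene OsActin included, was in the set, and 9 of them were listed in at least 1 comparison but none in all 4. Of all 19182 listed genes, 2.15% were in the set and 2941 were listed in all 4, so nothing is read from this absence among so few loci.

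The lengths of the intervals were not spread evenly. The median was 6820 bp in the set, against 4453 bp in the other genes listed in all 4 comparisons and 3705.5 bp in all listed genes. Longer intervals have more room for DMRs, and how far the number asked for by the rule sets this difference was not tested. Within the set the lengths fell into narrow peaks. There were 106 genes from 4000 to under 5000 bp, only 21 from 5000 to under 6000 bp, 106 from 6000 to under 7000 bp and 131 from 7000 to under 8000 bp. A single bin of 10 bp, 7150 to 7159 bp, held 73 genes or 17.7% of the set, and 44 of these were exactly 7156 bp long. In all, 153 genes (37.1%) had exactly the same length as another gene of the set.

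Genes of 7150 to 7159 bp stood apart from genes of almost the same length. There were 170 listed genes in that bin, of which 127 (74.7%) were listed in all 4 comparisons and 42.9% were in the set. The 29 other bins of 10 bp between 7000 and 7299 bp held 5 to 57 listed genes each (median 11) and at most 6 genes of the set. Of the 419 listed genes in those bins, 30.5% were listed in all 4 comparisons and 39 (9.31%) were in the set. The fullest bin between 6000 and 6999 bp was 6960 to 6969 bp, with 18 genes of the set among 42 listed. The fullest between 4000 and 4999 bp was 4290 to 4299 bp, with 14 among 63. These length classes were formed after the values had been seen, and they were not tested. The bin of 7150 to 7159 bp was picked as the one with most genes of the set. Its lead over the other bins in that number was therefore fixed by the choice.

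**Figure D2:**
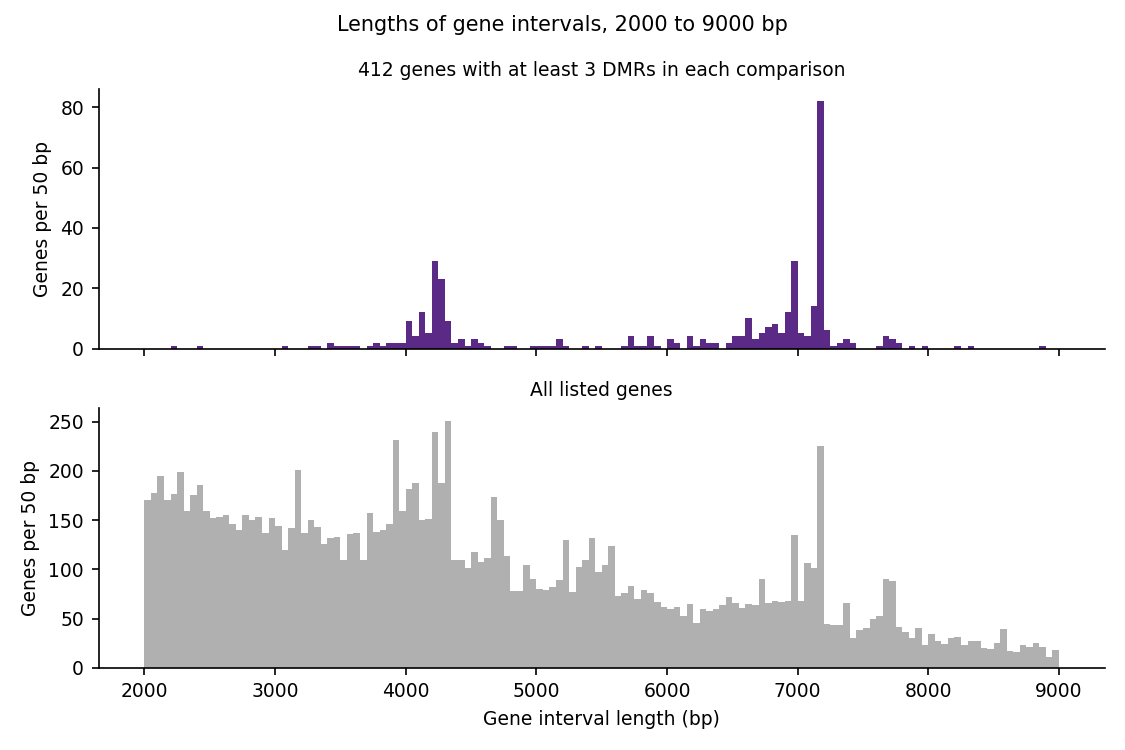
Number of gene intervals per 50 bp of length, from 2000 to 9000 bp, for the 412 genes with at least 3 DMRs in each comparison (top) and for all listed genes (bottom). The set is concentrated near 4200 bp, 6960 bp and 7156 bp, and the peak near 7156 bp also stands out among all listed genes.

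Many of the genes came in neighbouring pairs of one layout. A longer interval of 6000 to 7999 bp lay beside a shorter one of 3800 to 4900 bp, with 600 to 660 bp between them. There were 222 such pairs among neighbouring listed genes, with a median gap of 627 bp and a median shorter interval of 4237 bp. The longer gene measured 7150 to 7159 bp in 123 pairs. Of the 412 genes, 168 (40.8%) were in such a pair, against 7.0% of the other genes listed in all 4 comparisons and 2.31% of all listed genes. The limits of a pair were set after the lengths and gaps were seen, and they take in the length peaks of the set. How far this definition sets the contrast was not tested, and no share among genes of matched length was computed. At least 1 gene of the set was found in 125 pairs, both genes in 43, only the longer in 70 and only the shorter in 12. Among listed genes as a whole, 241 neighbouring intervals were 620 to 639 bp apart. The next fullest bin of 20 bp held 112, and the other bins under 1000 bp held a median of 39. Gaps of the pairs count among the 241, so this peak is not separate from the pairs.

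The pair with the most DMRs was LOC_Os01g17460 with LOC_Os01g17450 on chromosome 1. LOC_Os01g17460 (6964 bp) had 34 DMRs and LOC_Os01g17450 (4243 bp) had 27, with 620 bp between the intervals. LOC_Os01g17450 had 3 hyper and 4 hypo for NN-field Ox1, 5 and 3 for NN-field WYG7, 3 and 3 for HN-field Ox1, and 3 and 3 for HN-field WYG7. LOC_Os05g41690 (4210 bp, 26 DMRs) was paired with LOC_Os05g41700 (6631 bp, 25 DMRs), again 620 bp apart. The shorter gene lay to the right of the longer one in 97 of the 222 pairs and to the left in 125. Intervals of near-equal length and layout may be near-identical copies, to which short reads cannot be placed with certainty. No sequence was read here, so the identity of the copies and their part in the numbers of DMRs were not tested.

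Directions differed between the comparisons in the same genes. For Ox1 in the NN field 25.2% of the DMRs in the 412 genes were hyper (95% Wilson interval 23.4 to 27.1), and for NN-field WYG7 50.2% (48.0 to 52.4). For Ox1 in the HN field 65.8% were hyper (63.7 to 67.8), and for HN-field WYG7 45.1% (43.0 to 47.2). These intervals hold only the error of counting DMRs. Counted by covered length, the hyper share was 20.8%, 45.1%, 66.1% and 41.3% in the same order.

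Counted by DMRs, the hyper share in the set was lower than in the remaining listed genes in 3 of the 4 comparisons. It was 25.2% in the set and 31.5% in all other listed genes for NN-field Ox1, a difference of -6.37 percentage points. The widest difference, -17.1 points, was that of NN-field WYG7, with 50.2% in the set and 67.3% in the other genes. For Ox1 in the HN field the shares were 65.8% and 78.4%, a difference of -12.6 points. For WYG7 in the HN field they were 45.1% and 45.0%, a difference of 0.11 points. Over the DMRs of all listed genes, the set included, hyper-DMRs made up 30.5%, 65.3%, 76.8% and 45.0% in the same order. The other genes listed in all 4 comparisons lay between in the first 3, with 30.0% for NN-field Ox1, 60.2% for NN-field WYG7 and 72.4% for HN-field Ox1, and had 43.1% for HN-field WYG7. By covered length the set was below all other listed genes in all 4 comparisons. Its shares were 20.8%, 45.1%, 66.1% and 41.3% in the same order, against 29.5%, 67.7%, 79.6% and 47.9%. For HN-field WYG7 the other genes listed in all 4 comparisons also had 41.3% by length. The DMRs of the set were also longer, with medians of 256, 292, 277 and 260 bp against 236, 248, 239 and 241 bp in other listed genes. The other genes listed in all 4 comparisons lay between, with 249, 270, 258 and 251 bp. These values come from the contrasts that chose the genes and carry no test.

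**Figure D3:**
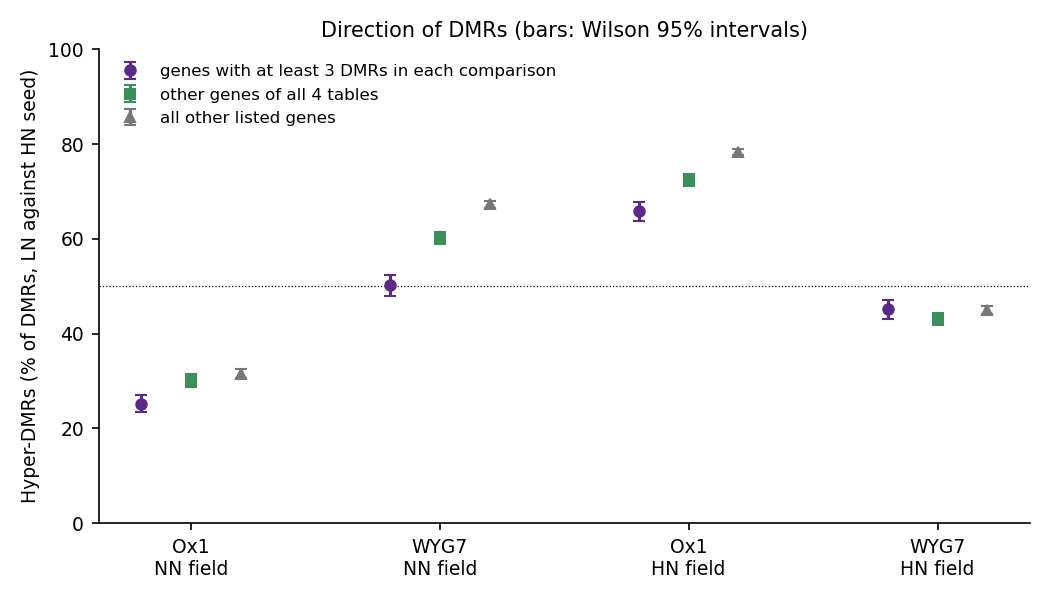
Share of hyper-DMRs (percent of DMRs, LN against HN seed) in each of the 4 comparisons, for the 412 genes (circles), for other genes listed in all 4 comparisons (squares) and for all other listed genes (triangles). Bars are Wilson 95% intervals over DMRs, and the dotted line marks 50%. The circles lie below the triangles in 3 comparisons, with differences of -6.37, -17.1 and -12.6 percentage points, and level with them for HN-field WYG7.

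Paired and unpaired genes of the set had nearly the same shares. The 168 genes in pairs had 25.1%, 49.1%, 66.0% and 43.7% hyper-DMRs for NN-field Ox1, NN-field WYG7, HN-field Ox1 and HN-field WYG7. The 244 genes outside pairs had 25.2%, 51%, 65.7% and 46.1%. The 276 genes of such pairs outside the set had fewer DMRs, with a median of 10 against 20 for the pair genes in the set, and 25.3%, 49.7%, 65.4% and 49.4% of their DMRs were hyper. They come from the same contrasts and were left out by the same rule, so they are no independent check. In the first 3 comparisons the paired genes had close shares inside and outside the set, all below those of the other listed genes given above.

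Gene by gene, hypo-DMRs dominated for NN-field Ox1 and hyper-DMRs for HN-field Ox1. For Ox1 in the NN field 27 genes were mostly hyper, 356 were mostly hypo and 29 had equal numbers. For Ox1 in the HN field 290 were mostly hyper, 66 mostly hypo and 56 equal. WYG7 was more even, with 181 mostly hyper, 179 mostly hypo and 52 equal in the NN field, and 142, 210 and 60 in the HN field. The 2 directions stood side by side within most genes. Both occurred in 308 of the 412 genes for NN-field Ox1, 369 for NN-field WYG7, 354 for HN-field Ox1 and 372 for HN-field WYG7. In 218 genes both occurred in each of the 4 comparisons, and over the 4 comparisons together both occurred in all 412. The rule asks for at least 3 DMRs per comparison, which leaves room for both directions in a gene. Counts of genes with both directions were not made in other genes, so nothing particular to the set is read from them. Majorities were counted for Ox1 in the 2529 other genes listed in all 4 comparisons, which need not have 3 DMRs per comparison. Of these, 1631 were mostly hypo for NN-field Ox1 and 1696 mostly hyper for HN-field Ox1.

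**Figure D4:**
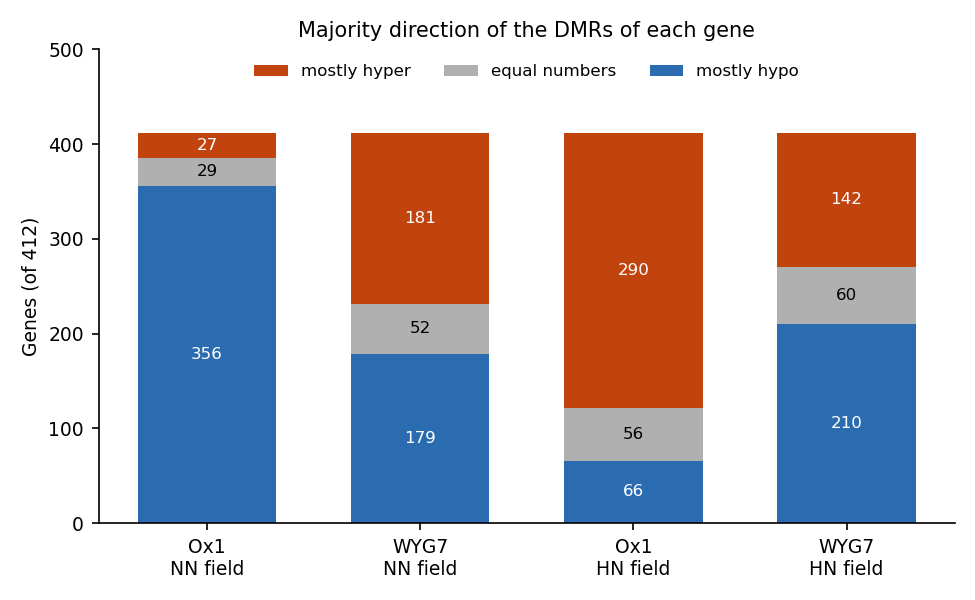
Number of genes, of 412, whose DMRs were mostly hyper (orange), mostly hypo (blue) or equal in number (grey) in each comparison of LN with HN seed. Mostly hypo genes number 356 for NN-field Ox1, and mostly hyper genes number 290 for HN-field Ox1.

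The 2 majorities of Ox1 often met in one gene. There were 248 genes (60.2%) that were mostly hypo for NN-field Ox1 and mostly hyper for HN-field Ox1, and 5 with the reverse. The 2 margins multiplied, 356 and 290 of 412, give 251 genes, so the number is close to what the margins alone give. Of the 2529 other genes listed in all 4 comparisons, 1113 (44.0%) had both majorities, and the margins there give 1094. In 18 genes of the set the change was complete, with every DMR hypo in the NN field and every DMR hyper in the HN field. Every DMR was hypo in 104 genes for NN-field Ox1, and every DMR was hyper in 57 genes for HN-field Ox1. No gene had only hyper-DMRs for NN-field Ox1, so the complete reverse could not occur. What these margins alone give, and the number of complete changes in other genes, were not computed. LOC_Os08g18940 (7156 bp, chromosome 8) was one of them, with 7 hypo-DMRs for NN-field Ox1 and 4 hyper-DMRs for HN-field Ox1. LOC_Os01g15880 (4266 bp, chromosome 1) had 6 hypo-DMRs and 7 hyper-DMRs in the same 2 comparisons. Both were picked from the 18 after their values were seen. In WYG7, 61 genes were mostly hypo in the NN field and mostly hyper in the HN field, and 96 the reverse.

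Over all 4 comparisons, in the order Ox1 NN field, WYG7 NN field, Ox1 HN field and WYG7 HN field, the commonest sequence of majorities was hypo, hyper, hyper, hypo, found in 61 genes. Next came hypo, hypo, hyper, hypo in 56 genes, hypo, hyper, hyper, hyper in 33 and hypo, hypo, hyper, hyper in 31. Opposite majorities of the lines in both fields were found in 75 genes, among them LOC_Os01g27000 (30 DMRs) and LOC_Os01g28870 (7156 bp, 29 DMRs). LOC_Os01g28870 had 2 hyper and 7 hypo for Ox1 against 5 and 1 for NN-field WYG7, and 5 and 3 for Ox1 against 2 and 4 for HN-field WYG7. The majority was the same in all 4 comparisons in 19 genes, hypo in 15 and hyper in 4. What the margins alone give for these sequences, and the same counts in other genes, were not computed. The hypo genes with the most DMRs were LOC_Os01g25580 with 26, LOC_Os05g20330 with 25 and LOC_Os06g23840 with 24. LOC_Os05g20330 had no hyper-DMR among 3 for NN-field WYG7, 1 among 7 for NN-field Ox1, 1 among 5 for HN-field Ox1 and 4 among 10 for HN-field WYG7.

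The DMRs of the 4 comparisons lay partly at the same places. The intervals of the set summed to 2640026 bp, and DMRs covered 24.7% of this for NN-field Ox1, 27.2% for NN-field WYG7, 26.1% for HN-field Ox1 and 27.1% for HN-field WYG7. No comparison covered 38.1% of the bases, 1 covered 30.5%, 2 covered 21.1%, 3 covered 8.73% and all 4 covered 1.51%, which is 39976 bp. Such bases occurred in 257 genes (62.4%). The 4 cover shares multiplied give 12537 bp (0.475%) under all 4. The rule asks for several DMRs of every comparison in each gene, and no such value was computed for other genes. Within a gene, the share of the interval under a DMR of any comparison had a median of 66.9% and ran between 14.6% and 95.8%. Bases under a DMR of any comparison formed unbroken stretches, each a lone DMR or several that adjoined or overlapped. There were 2733 such stretches in the set, of which 895 came from 1 comparison (median 202 bp), 627 from 2 (368 bp), 592 from 3 (616.5 bp) and 619 from all 4 (1078 bp).

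LOC_Os04g17750 (chromosome 4, 9722243 to 9726384, 4142 bp) had the highest share of its interval under DMRs of all 4 comparisons, 14.2%, and the highest under a DMR of any comparison, 95.8%. It was followed by LOC_Os03g39790 with 14.1% of 3416 bp. The share was above 11% in LOC_Os07g32320 and LOC_Os02g48250 too, with 491 bp of 4220 bp and 493 bp of 4423 bp. The longest run of bases under a DMR of all 4 comparisons, 624 bp, was in LOC_Os04g27890 at 16473278 to 16473901 of chromosome 4. The run began under a hypo-DMR in 3 comparisons and a hyper-DMR for HN-field Ox1. In LOC_Os04g17750 the longest such run was 315 bp and had the same directions at its start.

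At bases under a DMR of all 4 comparisons, the directions seldom matched in all 4. The bases were hypo in all 4 comparisons in 10.0% of cases and hyper in all 4 in 2.75%. The commonest combination was hyper for HN-field Ox1 and hypo in the other 3 comparisons, with 18.4% of the bases. Unrelated directions with the hyper shares by covered length, 20.8%, 45.1%, 66.1% and 41.3%, would also seldom match in all 4. The shares of these combinations in other genes were not computed. Taking all overlapping DMRs of any 2 comparisons in the set, 49.4% of 8295 pairs had the same direction (48.3 to 50.5). The lowest share, 42.2% of 1341 pairs, was that of NN-field Ox1 with HN-field Ox1. The hyper shares of those 2 lists in the set would give 42.2% if directions were unrelated. The highest, 54.2% of 1394 pairs, was that of NN-field Ox1 with HN-field WYG7, where the hyper shares would give 52.4%. In the other genes listed in all 4 comparisons the 2 shares were 42.2% and 55.4%.

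Along the genes of 7150 to 7159 bp that belong to a neighbouring pair, DMRs were not spread evenly. The longer genes were read from the end away from the shorter gene, in 25 bins of 286 bp. Over the 58 such genes of the set, the mean cover by DMRs, averaged over the 4 comparisons, was lowest at 287 to 572 bp with 8.98% of the bin, followed by 1 to 286 bp with 11.9% and 4005 to 4290 bp with 12.4%. It was highest at 5721 to 6006 bp with 35.7%. The low bin at 287 to 572 bp was the same in the 30 genes whose shorter partner lies to the right (9.76%) and in the 28 whose partner lies to the left (8.14%). It was also the lowest in the 65 genes of this layout outside the set (7.65%). The bin with the highest cover was not shared, since it lay at 5721 to 6006 bp in the 30 genes, at 3147 to 3432 bp in the 28 and at 1145 to 1430 bp in the 65. At 1145 to 1430 bp the cover of the 58 genes was mostly hypo for NN-field Ox1, 27.8% against 2.86% hyper, and mostly hyper for HN-field Ox1, 23.5% against 4.60% hypo. The 65 genes outside the set were mostly hypo there for NN-field Ox1, 16.5% against 4.59% hyper. They were also mostly hypo there for HN-field Ox1, 12.4% against 6.65% hyper. In the 58 genes hypo cover exceeded hyper cover for HN-field Ox1 in other bins, such as 2289 to 2574 bp with 14.7% against 10.1%.

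**Figure D5:**
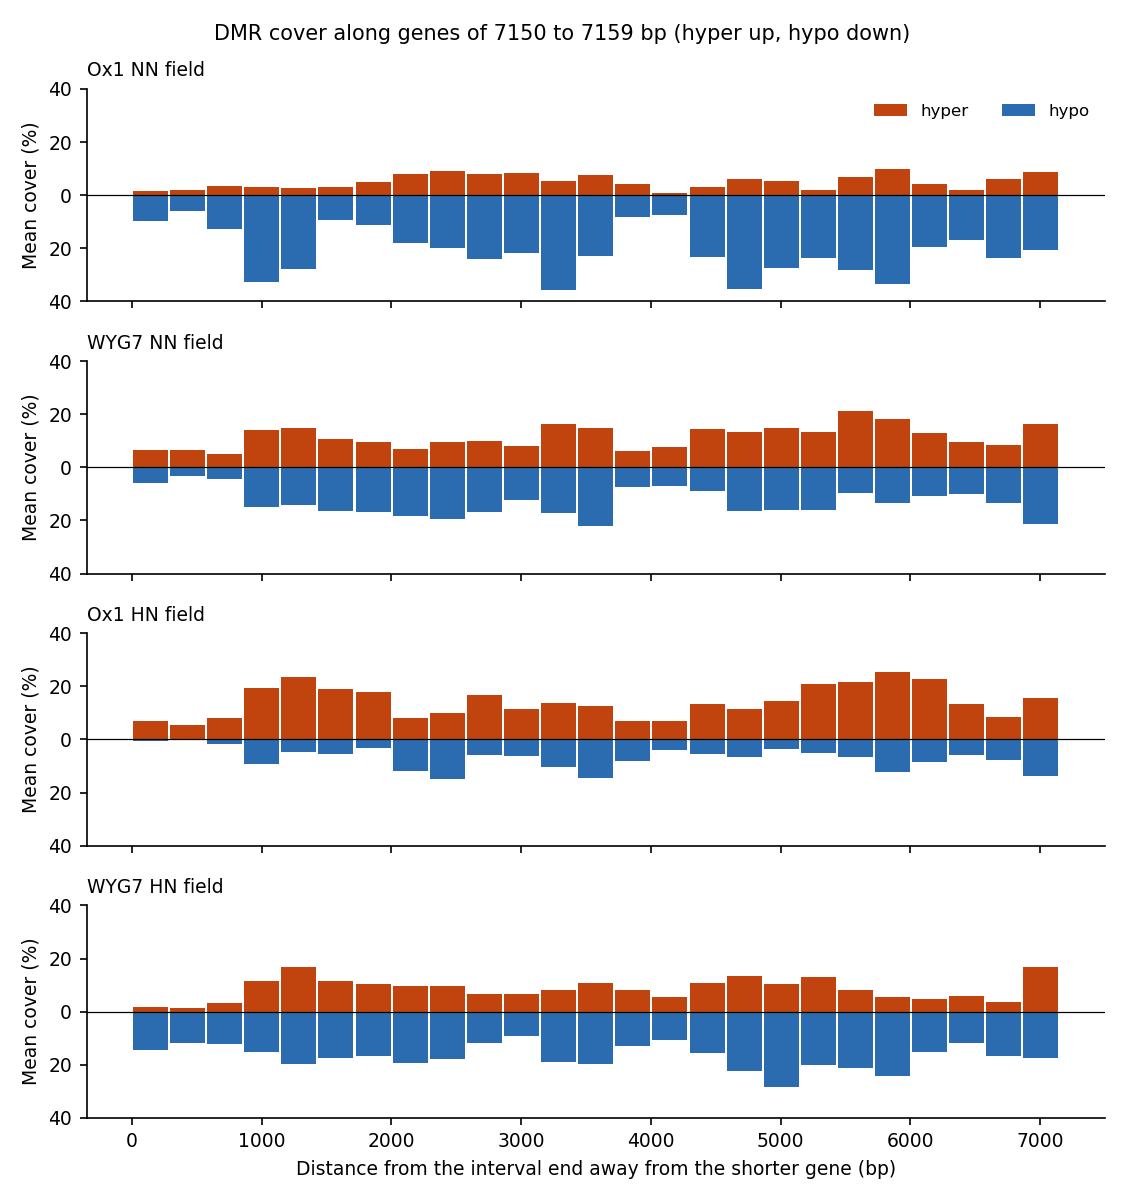
Mean cover by hyper-DMRs (orange, upwards) and hypo-DMRs (blue, downwards) along the 58 genes of the set of 7150 to 7159 bp that have a shorter neighbour, as percent of each 286 bp bin, by distance in bp from the interval end away from that neighbour. The 3 bins nearest that end are low in the 4 comparisons together. The cover is mostly blue for NN-field Ox1 and mostly orange for HN-field Ox1, except at 2003 to 2574 bp and 3433 to 4004 bp in the latter.

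Genes of the set were found on all 12 chromosomes. Chromosomes 1, 4 and 5 had 50 each, while chromosome 10 had 13 and chromosome 11 had 11. As a share of the listed genes they ran from 0.658% on chromosome 11 and 0.952% on chromosome 10 to 2.96% on chromosome 5. The hyper share of their DMRs lay between 15.3% and 33.5% over the chromosomes for NN-field Ox1 and between 61.7% and 71.2% for HN-field Ox1, so it was under 50% on every chromosome in the NN field and over 50% on every chromosome in the HN field. For WYG7 it lay between 45.8% and 52.5% in the NN field and between 40.4% and 51.3% in the HN field. Only 10 genes of the set (2.43%) lay in the 22 windows of 500 kb that were densest in DMRs, against 5.25% of all listed genes. Intervals of neighbouring genes of the set were less than 1000 bp apart in 79 cases, and 1 pair overlapped.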

How the data were processed

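Reads were filtered, trimmed and aligned by the authors with Bismark 0.9.0 to the IRGSP-1.0 genome, and SMART called the DMRs of LN against HN libraries. The deposited lists give positions in bp and directions of DMRs, and positions and MSU identifiers of genes, without reads or methylation levels. The annotation version is not given in the sources used here, and 0 columns were left without a comparison.

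Positions were read as starting at 1 with both ends included. Overlaps, shares and Wilson 95% limits came from Python 3.11.15 (pandas 2.3.3, numpy 2.4.6, scipy 1.17.1), figures from matplotlib 3.10.9. The gene-finding step was tested on simulated data. A fixed rule named 23 genes: those with the highest smallest number, total, density and shared cover of DMRs, the shortest and longest intervals, and those with most DMRs among genes of one majority throughout or of opposite majorities between lines. LOC_Os01g17460, LOC_Os05g41700, LOC_Os08g18940, LOC_Os01g15880 and LOC_Os04g27890 were named after their values were seen. The genes and lists were chosen with earlier results of these data known, and length classes and pairs after lengths and gaps were seen. Alternatives were longer or merged DMRs, other overlaps, DMR numbers and length limits, and leaving out dense windows. Products were not used here, since the reference table held no MSU locus.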

Additional observations from a re-analysis of the deposited data

Results flagged for a closer look

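In the 412 genes the hyper share of the Ox1 DMRs differed between the fields by -40.6 percentage points, with 25.2% in the NN field and 65.8% in the HN field. In the HN field it was 20.7 points higher in Ox1 than in WYG7, with 65.8% in Ox1 and 45.1% in WYG7. In the other listed genes the same differences were wider, -46.8 and 33.4 points. What drew attention to both is that the shares lie on opposite sides of 50%. With 1 library per condition and no value per library in the lists, neither difference was tested.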

How the results depend on the processing

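The number of genes in the set followed the limits of the rule. It was 881 with at least 2 DMRs per comparison, 191 with at least 4 and 146 when only DMRs of at least 200 bp were counted, against 412 by the rule. With DMRs of at least 200 bp the hyper share was 21.7% for NN-field Ox1, 47.2% for NN-field WYG7 and 62.0% for HN-field Ox1. With at least 2 DMRs it was 52.7% for NN-field WYG7 and 67.9% for HN-field Ox1. For HN-field WYG7 it stayed between 43.0% and 45.6% in the 9 alternatives, and the same-direction share of overlapping DMRs between 49.2% and 49.9%. The share of bases under DMRs of all 4 comparisons was 1.12% with at least 2 DMRs, 1.93% with at least 4, 1.31% with DMRs of at least 200 bp, 1.56% with merged DMRs, 1.43% with no length limit, 1.63% with a limit of 10000 bp and 1.49% with an overlap of 1 bp or of 100 bp. Each alternative changed the genes or DMRs that were counted, and the cause of these shifts was not tested. No paired analysis was possible because the lists hold no value per library, and no result has a p-value. Coverage per DMR is unknown.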
